A study of Mus musculus with 11 samples.

Results

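The genes described here are 9 transcripts of the progenitor niche beside the striatum: Fabp7 and Nes of radial glia and stem cells, the homeobox genes Dlx1 and Dlx2 of progenitors that make inhibitory neurons, and Dcx, Sox4, Sox11, Cd24a and Igfbpl1 of neuroblasts. All 9 were found by gene name among the 14667 genes of each deposited table. They were chosen by name with the statistics of both tables already known, so their fold changes and p-values are given as a description and support nothing. RNA came from the nucleus accumbens of 11 C57/BL6 mice, 1 mouse per library. The groups were 4 mice with viral overexpression of green fluorescent protein (GFP) given saline, 3 with viral GFP given cocaine, and 4 with viral overexpression of E2F3a given saline. Every mouse, controls included, thus carried a virus. E2F3a is a form of E2F3, a transcription factor that drives cell cycle genes, and cocaine is a stimulant that blocks dopamine reuptake. No source used here gives the age or sex of the mice, the virus and its promoter, or the dose and timing of cocaine.

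In the adult mouse brain the wall of the lateral ventricle, next to the striatum, keeps stem cells that descend from radial glia. They give rise to dividing progenitors and then to neuroblasts, which migrate along the rostral stream to the olfactory bulb and pass close to the nucleus accumbens. Several of these genes are also active in other cells of the tissue: Fabp7 in astrocytes, Nes in some endothelial and reactive glial cells, Dlx1 in interneurons, and Cd24a in ependyma and blood cells. In bulk tissue, fewer cells of a type and less RNA per cell cannot be told apart.

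Promoter windows from RefSeq (build GRCm38.p6, which is mm10), 250 bases before to 50 after the annotated start, were found for 7 of the 9 genes, and Cd24a and Igfbpl1 are named only. The windows of the genes with the lowest and the highest fold changes after cocaine are shown, since they differ plainly in CG pairs, which stand in capitals. Fabp7 (chr10:57784673-57784972, plus strand) holds 6 CG pairs and Nes (chr3:87970843-87971142, plus strand) holds 18. Dcx (chrX:143933075-143933374, minus strand, 1 of its 2 windows) holds 3, and Sox11 (chr12:27342669-27342968, minus strand) holds 21. The median over all 32851 windows was 7, so each pair has 1 gene below and 1 above it.
Fabp7: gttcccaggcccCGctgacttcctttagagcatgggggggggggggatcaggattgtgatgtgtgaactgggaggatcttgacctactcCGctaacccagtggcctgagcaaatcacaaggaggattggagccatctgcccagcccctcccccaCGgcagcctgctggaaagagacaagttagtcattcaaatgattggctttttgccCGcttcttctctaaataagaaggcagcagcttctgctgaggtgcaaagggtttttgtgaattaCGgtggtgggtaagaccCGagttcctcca
Nes: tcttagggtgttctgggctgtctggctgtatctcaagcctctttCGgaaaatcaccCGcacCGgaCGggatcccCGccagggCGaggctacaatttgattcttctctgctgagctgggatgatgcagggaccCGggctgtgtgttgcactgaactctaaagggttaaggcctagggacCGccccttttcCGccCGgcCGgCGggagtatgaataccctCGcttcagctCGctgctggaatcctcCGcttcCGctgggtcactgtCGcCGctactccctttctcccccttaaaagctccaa
Dcx: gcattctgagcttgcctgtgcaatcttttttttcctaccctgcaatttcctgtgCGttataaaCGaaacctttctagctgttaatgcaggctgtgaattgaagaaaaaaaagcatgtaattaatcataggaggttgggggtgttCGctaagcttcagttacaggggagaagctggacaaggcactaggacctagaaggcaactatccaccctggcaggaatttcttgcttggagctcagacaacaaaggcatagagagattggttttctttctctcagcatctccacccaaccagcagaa
Sox11: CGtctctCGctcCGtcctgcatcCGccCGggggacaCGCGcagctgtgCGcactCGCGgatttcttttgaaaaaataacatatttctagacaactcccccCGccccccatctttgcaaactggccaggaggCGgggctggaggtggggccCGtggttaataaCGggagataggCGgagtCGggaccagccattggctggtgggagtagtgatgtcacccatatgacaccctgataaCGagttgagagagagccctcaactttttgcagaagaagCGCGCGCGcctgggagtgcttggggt

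As E2F3a was the overexpressed factor, 4 E2F words (TTTGGCGC, TTTCCCGC, TTTCGCGC and TTTGGCGG) were searched on both strands. They occur in none of the 8 windows of these genes, and 2.37% of all windows hold at least 1 of them, which says only that these letters are absent here. The E-box word CACGTG, present in 7.15% of all windows, occurs only in the Dlx2 window (chr2:71546705-71547004, minus strand), at 2 places shown in capitals. A match is a description of the letters and not a bound site.
Dlx2: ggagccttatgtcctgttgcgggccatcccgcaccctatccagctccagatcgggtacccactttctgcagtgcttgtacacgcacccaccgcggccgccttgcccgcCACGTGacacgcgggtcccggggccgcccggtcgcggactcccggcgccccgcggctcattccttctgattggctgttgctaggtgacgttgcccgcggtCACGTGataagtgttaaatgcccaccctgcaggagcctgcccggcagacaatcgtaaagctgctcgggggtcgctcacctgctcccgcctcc

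The mean expression of each gene is the same in both deposited tables, and no values per mouse were used, so neither single mice nor sequencing depths can be shown. In the authors' deposited table E2f3, the overexpressed gene, was listed at a log2 fold change of 1.01 (SE 0.20, interval 0.57 to 1.45) for E2F3a against GFP. Its unadjusted p there was 0.000337, the smallest of all 14667 genes in that comparison, and its adjusted p was 1.00. All 12 markers of medium spiny neurons, the main neurons of the labelled tissue, were present, with a mean log2 expression between 5.48 and 9.92 in the authors' deposited table. Of the ependymal and choroid plexus markers 4 of 9 were present, among them Foxj1 at a mean log2 expression of 4.11 in the authors' deposited table, and the others were not analysed here.

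Fabp7 had the highest level per length of the 9 genes. Levels are the mean log2 expression of the authors' deposited table, which looks like log2 CPM averaged over the libraries of the authors' fit, less the log2 of the exonic length in kb. On this log2 per kb scale Fabp7, a fatty acid binding protein, stood at 5.56, with an exonic length of 1250 bases. Cd24a, a cell surface glycoprotein, followed at 2.68, Nes, the intermediate filament nestin, at 2.42, Sox11 at 2.20, and Dcx, the microtubule binding doublecortin, at 1.91. Dlx1 stood at 1.57, Dlx2 at 1.25, Igfbpl1 at 0.99 and Sox4 at 0.45. Exons of Dlx1 and Sox4 overlap genes of the opposite strand, and what this does to their levels was not tested. The gap from Fabp7 to Cd24a, 2.89 log2 units, was larger than the SD between mice implied for that pair, 0.635. Of the 8 gaps between neighbours 6 were within such an SD, and the other 2 were this one and that from Igfbpl1 to Sox4 (0.54 beside 0.448). Such an SD is the spread of single mice and not the error of a mean, so the order of the genes was not tested. Before the correction for length, Dlx2, Sox4 and Igfbpl1 lay below the 25th percentile of all genes, a mean log2 expression of 3.21, and the other 6 lay above it.

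Cocaine was compared with saline in mice that carried GFP, which asks what the drug changes without E2F3a. The estimates of the 9 genes did not go one way: the radial glia genes lay below 0, Dcx and Sox11 lay above 0, the Dlx genes and Sox4 lay close to 0, and Igfbpl1 and Cd24a lay below 0 with intervals that span it. Fabp7 (ENSMUSG00000019874.7, mm10 chromosome 10, 57784881 to 57788450, plus strand) was listed at a log2 fold change of -1.11 in the authors' deposited table, a fold of 0.463. The SE implied by that table was 0.22 and the 95% interval ran from -1.59 to -0.64, all on the log2 scale. Its unadjusted p in the authors' deposited table was 0.000309, and adjusted over the whole table it was 0.533. At 1.40, its percentile among the log2 fold changes of all 14667 genes was the lowest of the 9.

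Nes (ENSMUSG00000004891.12, mm10 chromosome 3, 87971078 to 87980451, plus strand) stood at a log2 fold change of -0.66 in the authors' deposited table, with an SE of 0.27 and an interval of -1.24 to -0.07. That is a fold of 0.634, with an unadjusted p of 0.031 and an adjusted p of 0.533 in the authors' deposited table. Nes and Fabp7 thus had the lowest estimates among the 9, and both intervals lay below 0.

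Dlx1 and Dlx2, neighbouring homeobox genes that specify inhibitory neurons, showed no shift that these data can resolve. Their gene models on mm10 chromosome 2 (Dlx1 71528113 to 71533981, plus strand, and Dlx2 71543408 to 71546754, minus strand) lie 9426 bases apart. The log2 fold change after cocaine was 0.059 for Dlx1 (interval -0.75 to 0.87) and -0.026 for Dlx2 (interval -0.72 to 0.67) in the authors' deposited table. The Dlx2 estimate was 0.12 once the trend in length and expression was removed. Exons of Dlx1 overlap those of Dlx1as on the opposite strand, and the library kit does not keep the strand. Reads within the shared bases thus cannot be assigned to 1 gene of the pair. Dlx1as, named for that overlap, was listed at 0.53 (SE 0.26) on the log2 scale in the authors' deposited table.

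Among the neuroblast genes, Sox11, a transcription factor of immature neurons (ENSMUSG00000063632.6, mm10 chromosome 12, 27334264 to 27342574, minus strand), had a log2 fold change of 0.39 after cocaine in the authors' deposited table. Its SE was 0.17, its interval 0.02 to 0.76 and its fold 1.31, and the authors' deposited table gives an unadjusted p of 0.0385 and an adjusted p of 0.538. Dcx, the marker most used for migrating neuroblasts (ENSMUSG00000031285.10, mm10 chromosome X, 143855842 to 143933311, minus strand), was listed at 0.41 (SE 0.22, interval -0.06 to 0.88, a fold of 1.33) in the authors' deposited table. These were the highest estimates of the 9, at percentiles 94.2 for Sox11 and 94.8 for Dcx of all genes.

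The other neuroblast genes did not share that direction. Igfbpl1, an insulin-like growth factor binding protein-like gene, was listed at a log2 fold change of -0.40 (interval -0.93 to 0.13) and Cd24a at -0.35 (interval -1.34 to 0.64) in the authors' deposited table. Sox4, a close relative of Sox11, stood at -0.017 (interval -0.57 to 0.54) in the authors' deposited table, and at 0.023 with the length and expression trend removed. On mm10, Igfbpl1 lies on chromosome 4 (45809468 to 45826923, minus strand), Cd24a on chromosome 10 (43578284 to 43584265, plus strand) and Sox4, a gene of 1 exon, on chromosome 13 (28948919 to 28953713, minus strand). All 3 intervals span 0, so a shift in either direction was not detectable at this precision. Sox4 shares exonic bases with the lincRNA Gm26735 of the opposite strand, which was not analysed here.

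**Figure D1:**
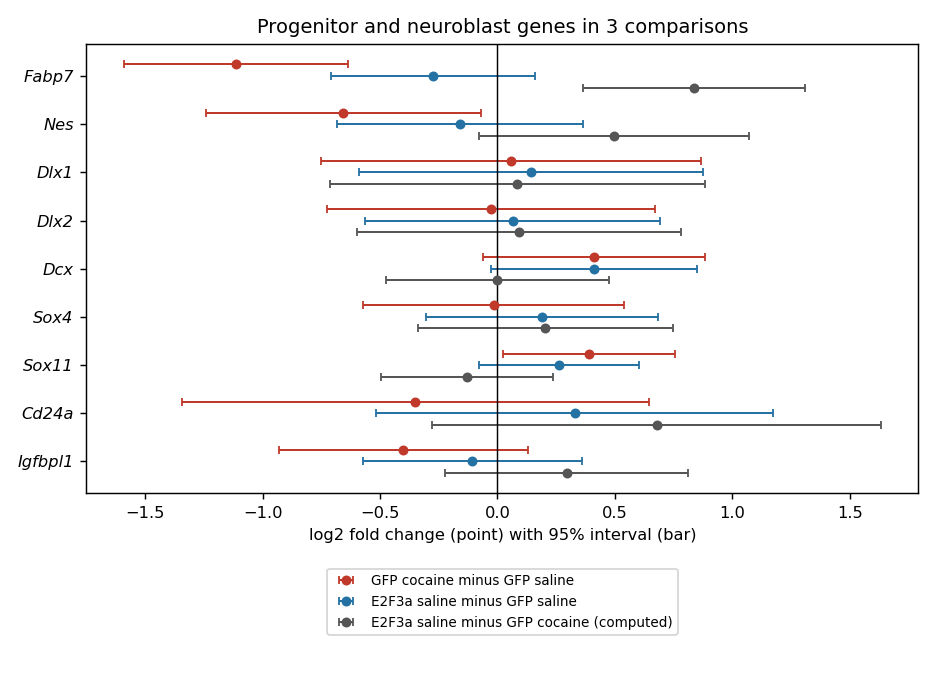
Log2 fold change (horizontal axis) of the 9 genes, with points for the estimate and bars for the 95% interval; red is GFP cocaine against GFP saline, blue E2F3a saline against GFP saline, both from the authors' deposited tables, and grey their computed difference. After cocaine the bars of Fabp7 and Nes lie below 0 and that of Sox11 above 0, with E2F3a all 9 bars span 0, and among the grey bars that of Fabp7 does not reach 0.

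By the authors' moderated test, 0 of the 9 genes passed an adjusted p of 0.05 after cocaine, as did 0% of all genes. The authors' deposited table has 2 members lower with an unadjusted p under 0.05 (Fabp7 and Nes), against 7.51% of all genes, and 1 higher (Sox11), against 1.74%. In all, 6 of the 9 estimates lay below 0, as did 53.8% of all genes. The median log2 fold change of the 9 was -0.026, beside -0.020 over all genes, and it was 0.023 with the length and expression trend removed. The median of the 9 was therefore close to that of all genes, with members at both ends. Nothing is read from these counts, because the members were chosen with this table known.

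E2F3a was compared with GFP in mice given saline, which asks what the factor changes in the absence of the drug. All 9 intervals spanned 0. The estimate above 0 farthest from it belonged to Dcx, with a log2 fold change of 0.41 in the authors' deposited table (SE 0.20, interval -0.03 to 0.85, unadjusted p = 0.0642). Its adjusted p, like that of each of the other 8 genes, was 1.00 in the authors' deposited table. Sox11 stood at 0.26 (SE 0.15, interval -0.08 to 0.60), Cd24a at 0.33 (SE 0.39) and Sox4 at 0.19 (SE 0.22) on the log2 scale in the authors' deposited table. Of the remaining neuroblast genes only Igfbpl1 lay below 0, at -0.11 (SE 0.21) in the authors' deposited table.

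Fold changes of the radial glia genes were nearer to 0 with E2F3a than with cocaine. Fabp7 was listed at a log2 fold change of -0.28 (SE 0.20, interval -0.71 to 0.16) and Nes at -0.16 (SE 0.24, interval -0.68 to 0.36) in the authors' deposited table. The same authors' deposited table gives Dlx1 at 0.14 (SE 0.33) and Dlx2 at 0.065 (SE 0.29), both small against their error.

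With E2F3a, 0 of the 9 genes passed an adjusted p of 0.05 by the authors' moderated test, as did 0% of all genes. At an unadjusted p under 0.05 there were 0 lower members, against 0.409% of all genes, and 0 higher ones, against 0.545%. Of the 9 estimates 3 lay below 0, where 47.5% of all genes did. The median log2 fold change of the 9 was 0.14, beside 0.0077 over all genes. The 2 tables share the GFP saline mice, so the values of a gene in them are not separate evidence: Dcx, for example, was listed at 0.41 in each of the authors' deposited tables.

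The shared mice cancel when the 2 fold changes are subtracted, which sets E2F3a saline mice directly against GFP cocaine mice. These groups differ in both the overexpressed gene and the drug, which cannot be told apart in this difference. The standard error of that difference was approximated with equal weight for every library. Fabp7 was 0.84 higher on the log2 scale in the E2F3a saline mice (SE 0.22, interval 0.36 to 1.31), and its interval alone among the 9 excluded 0. The difference was 0.50 for Nes (interval -0.08 to 1.07), 0.68 for Cd24a (interval -0.28 to 1.63) and 0.29 for Igfbpl1 (interval -0.22 to 0.81). For Dcx it was -0.00055 (interval -0.47 to 0.47) and for Sox11 -0.13 (interval -0.50 to 0.24), so these groups were not separated by either gene, although differences up to those bounds remain possible. Sox4 had a difference of 0.20, Dlx1 of 0.085 and Dlx2 of 0.091, each with an interval that spans 0.

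Over the 9 genes the median of this difference was 0.20, and over all genes 0.031. It was 0.088 with the length and expression trend removed. By the same approximate test, 0 of the 9 genes passed an adjusted p of 0.05, against 0% of all genes. Fabp7 was the 1 member higher at an unadjusted p under 0.05, against 4.1% of all genes, and 0 members were lower, against 0.43%. Of the 9 differences 2 lay below 0, as did 42.3% over all genes.

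Genes of several other cell types also lay above 0 in this difference, none of them at an adjusted p under 0.05 by the same approximate test. Over all genes 42.3% lay below 0 and 4.1% were higher at an unadjusted p under 0.05. All 18 genes of dividing cells lay above 0, with a median of 0.57 and 5 higher by that rule. All 8 leukocyte genes did too, with a median of 0.92 and 5 higher, as did the 5 red cell genes (median 0.65, 3 higher) and the 8 microglia genes (median 0.34, 3 higher). Vim and Gfap, filament genes of astrocytes and stem cells, differed by 0.85 (SE 0.29) and 0.69 (SE 0.25). They were the 2 of 18 other stem cell and progenitor genes higher by that rule. That list had a median of 0.17, with 16 above 0. All 7 endothelial and all 7 oligodendrocyte markers lay above 0, with 0 higher. Other lists went the other way. Below 0 were 18 of 26 other neuroblast genes (median -0.080), 11 of 12 medium spiny neuron markers (median -0.15) and 6 of 10 interneuron markers (median -0.24). Not all neuronal lists did so: 3 of 4 cortical neuron markers lay above 0 (median 0.55), with 0 higher by that rule. Oligodendrocyte precursor markers had a median of -0.0047, with 3 of 6 below 0. The median was 0.099 over 10 astrocyte markers, 2 of them higher, and 0.81 over the 4 ependymal and choroid plexus markers, also with 2 higher. Of these 4 markers 2 lie below the 25th percentile of mean expression. The part of these cells in the Fabp7 difference was not tested.

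Beyond their means, these genes varied between mice of a group more than most genes. The SD between mice implied by the deposited statistics, with equal weight for every library, ran from 0.22 for Sox11 to 0.57 for Cd24a on the log2 scale. The median over all genes was 0.20 and 9 of the 9 genes lay above it. As this SD depends on level, each gene was also set against genes of like level. Compared with genes within 0.5 log2 units of its own mean expression, Cd24a had 2.97 times the median SD, Dlx1 had 2.47 times and Nes 2.01 times. For Fabp7 the ratio was 1.69, for Dcx 1.69 and for Dlx2 1.63. Sox11 at 1.28, Sox4 at 1.27 and Igfbpl1 at 1.20 were closest to genes of like level. Thus the least certain fold changes are those of Cd24a and Dlx1. A shift of the size seen for Sox11 after cocaine, 0.39, would not be resolved in any other of the 9 genes. Their SEs after cocaine ran from 0.22 for Dcx to 0.45 for Cd24a.

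**Figure D2:**
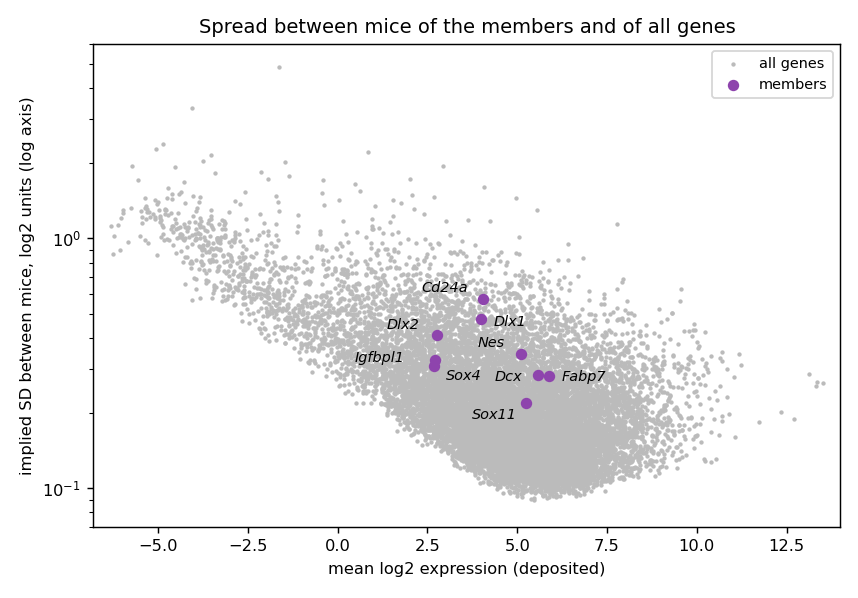
Implied SD between mice of a group (vertical log axis, log2 units) against mean log2 expression in the authors' deposited tables (horizontal axis), with 1 grey dot per gene and the 9 genes in purple. The 9 genes lie between 0.22 and 0.57, in the upper part of the cloud at their level, with Cd24a and Dlx1 the highest.

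For comparison, the median implied SD was 0.325 for the 9 genes, 0.282 for the other stem cell and progenitor genes and 0.238 for the other neuroblast genes. Leukocyte genes had a median of 0.567, interneuron markers 0.389, dividing cell genes 0.388 and red cell genes 0.357. It was 0.476 for the medium spiny neuron markers, 0.563 for the ependymal and choroid plexus markers and 0.877 for the cortical neuron markers. Oligodendrocyte markers had a median of 0.326 and those of their precursors one of 0.293. Lower medians were those of microglia (0.239), astrocyte (0.216) and endothelial markers (0.190). Of all these lists only the endothelial one lay below the median of all genes, 0.204. The part that these cell types had in the spread of the 9 genes was not tested.

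Other genes of the lineage were taken from lists written with earlier results of these data known. Of 21 further stem cell and progenitor genes 18 were present, and 2 were lower and 0 higher after cocaine at an unadjusted p under 0.05 in the authors' deposited table, where 7.51% and 1.74% of all genes were. The lower ones were Vim, the intermediate filament vimentin, at a log2 fold change of -0.90 (SE 0.28), and Gfap, the filament of astrocytes and adult stem cells, at -0.60 (SE 0.25), in the authors' deposited table. Hes1, a Notch target, was listed at -0.34 (SE 0.18) and Nr2e1, a nuclear receptor of neural stem cells, at -0.29 (SE 0.16) in the authors' deposited table. Over the list, the median was -0.19, with 14 of 18 estimates below 0, beside 53.8% of all genes. With E2F3a its median was 0.0017 and 0 of the 18 had an unadjusted p under 0.05 in the authors' deposited table.

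Of 28 further neuroblast and immature neuron genes 26 were present, with 19 estimates above and 7 below 0 after cocaine, where 53.8% of all genes lay below it, and a median log2 fold change of 0.092. The authors' deposited table has 1 of the 26 higher with an unadjusted p under 0.05, beside 1.74% of all genes. This was Etv1, a transcription factor of olfactory interneurons, at 0.28 (SE 0.11) on the log2 scale in the authors' deposited table. Erbb4, a neuregulin receptor that migrating neuroblasts carry, was at 0.43 (SE 0.21), Dclk1, a kinase related to Dcx, at 0.30 (SE 0.17), and Tubb2b, a neuronal tubulin, at -0.30 (SE 0.16) in the authors' deposited table. With E2F3a the median was 0.039, and 0 of 26 had an unadjusted p under 0.05 in the authors' deposited table. No gene of either list passed an adjusted p of 0.05 by the authors' moderated test.

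Of the relatives named by family, Sox12, Dlx5, Dlx6 and Fabp5 had intervals that span 0 after cocaine, as did Dclk1 and Dlx1as above. Sox12, of the same SoxC group as Sox4 and Sox11, was listed at a log2 fold change of 0.10 (SE 0.13) in the authors' deposited table. Dlx5 was at 0.16 (SE 0.19) and Dlx6 at -0.010 (SE 0.20) in the authors' deposited table. Fabp5, another fatty acid binding protein of the brain, stood at -0.26 (SE 0.16) on the log2 scale in the authors' deposited table. With E2F3a these 4 relatives ranged from -0.11 for Dlx5 to 0.12 for Fabp5 on the log2 scale in the authors' deposited table.

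Genes of dividing cells and of blood had estimates below 0 after cocaine, like Fabp7 and Nes. Of 18 genes of dividing cells 16 were lower at an unadjusted p under 0.05 in the authors' deposited table, with a median log2 fold change of -0.72 and a range of -1.23 to -0.34, where 7.51% of all genes were lower by that rule. All 8 measured leukocyte genes (median -1.36, range -2.34 to -0.96) and all 5 red cell genes (median -1.54, range -1.65 to -1.08) were lower by the same measure in the authors' deposited table. Microglia markers had a median of -0.31, with 3 of 8 lower at an unadjusted p under 0.05 in the authors' deposited table. Astrocyte markers had a median of 0.070 and 1 of 10 lower, Aldh1l1 at -0.50 (SE 0.17), and for endothelial markers the median was -0.092 and 2 of 7 were lower in the authors' deposited table. The mean log2 expression in the authors' deposited table ran from -0.35 to 7.58 for the leukocyte genes and from 1.27 to 4.42 for the red cell genes. For the 4 markers of ependyma and choroid plexus the median was -0.25, with Rarres2 at -0.73 (SE 0.28), Foxj1 at -0.27 (SE 0.31), Dynlrb2 at -0.23 (SE 0.60) and Tmem212 at 0.18 (SE 1.67) on the log2 scale in the authors' deposited table, and 1 of them, Rarres2, was lower by that rule. The part of these cell types in the Fabp7 and Nes values was not tested.

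With E2F3a the medians of the dividing cell, leukocyte and red cell lists were also below 0 but nearer to it. Both comparisons use the same GFP saline mice, so this is not separate evidence. Genes of dividing cells had a median log2 fold change of -0.18, with 18 of 18 below 0 and 0 lower at an unadjusted p under 0.05 in the authors' deposited table. Leukocyte genes had a median of -0.49, with 2 of 8 lower, and red cell genes one of -0.87, with 5 of 5 lower, where 0.409% of all genes were lower by that rule. The medians were 0.028 for microglia markers, 0.16 for astrocyte markers and 0.55 for ependymal and choroid plexus markers. In each 0 were lower or higher, where 0.545% of all genes were higher. The last median is over 4 genes, 2 of them below the 25th percentile of mean expression.

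**Figure D3:**
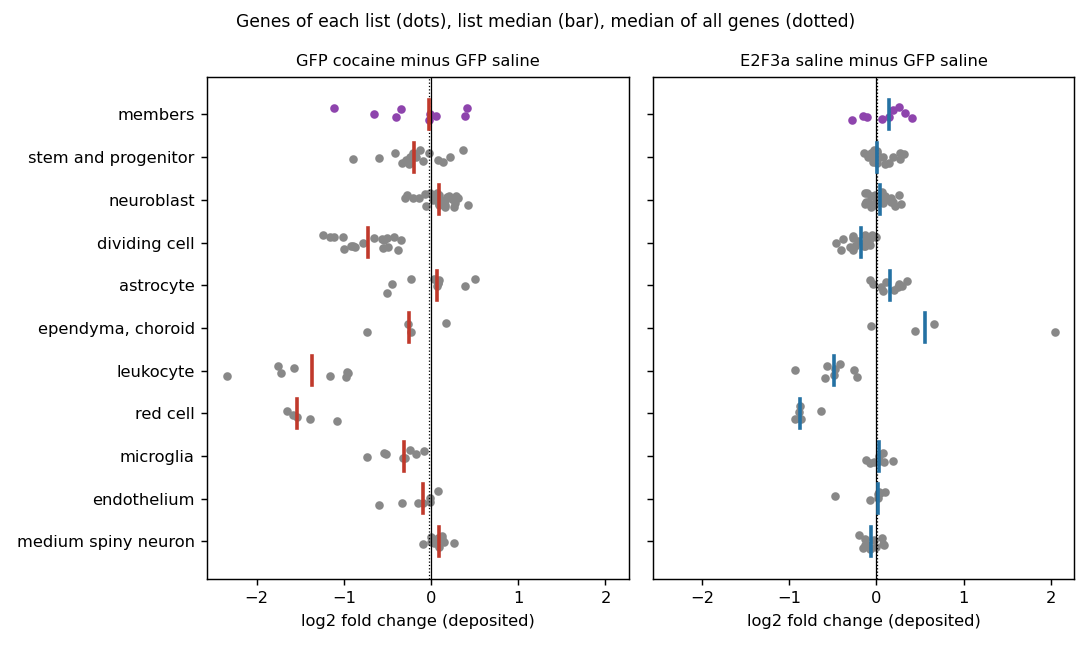
Log2 fold changes of the authors' deposited tables (horizontal axis) for the genes of 11 lists, with 1 dot per gene, a coloured bar at the list median and a dotted line at the median of all genes; the left panel is cocaine and the right panel E2F3a. The 9 genes, in purple, spread from -1.11 to 0.41 after cocaine and from -0.28 to 0.41 with E2F3a, while dividing cell, leukocyte and red cell genes lie below 0 in both panels. Both panels share the GFP saline mice.

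By distance over the 2 log2 fold changes, the genes most like Fabp7 were Ms4a6d, Lsp1 and Lgals3, among 5114 genes within 1 log2 unit of its mean expression and above the 25th percentile. The authors' deposited tables list Ms4a6d at -1.10 and -0.26, Lsp1 at -1.08 and -0.31, and Lgals3 at -1.17 and -0.23, for cocaine and for E2F3a, on the log2 scale. The likeness rests on 2 values that share the control mice.

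Longer transcripts had higher fold changes in both tables, and the 9 genes differ widely in length. In the authors' deposited cocaine table the median log2 fold change was -0.14 in the shortest quartile of transcripts, which holds Fabp7 and Cd24a, and 0.11 in the longest, which holds Nes, Dcx, Sox4 and Sox11. For E2F3a the medians of those quartiles were -0.062 and 0.079 in the authors' deposited table. With a trend in length and expression removed, the cocaine values were -0.94 for Fabp7 (interval -1.41 to -0.46) and -0.70 for Nes (interval -1.28 to -0.11). Sox11 then stood at 0.27 (interval -0.10 to 0.63), so its interval no longer excluded 0, and Dcx at 0.25 (interval -0.22 to 0.73). With E2F3a the values became -0.17 for Fabp7, -0.23 for Nes, 0.29 for Dcx and 0.15 for Sox11, all with intervals that span 0. These intervals use the SE of the deposited values.

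**Figure D4:**
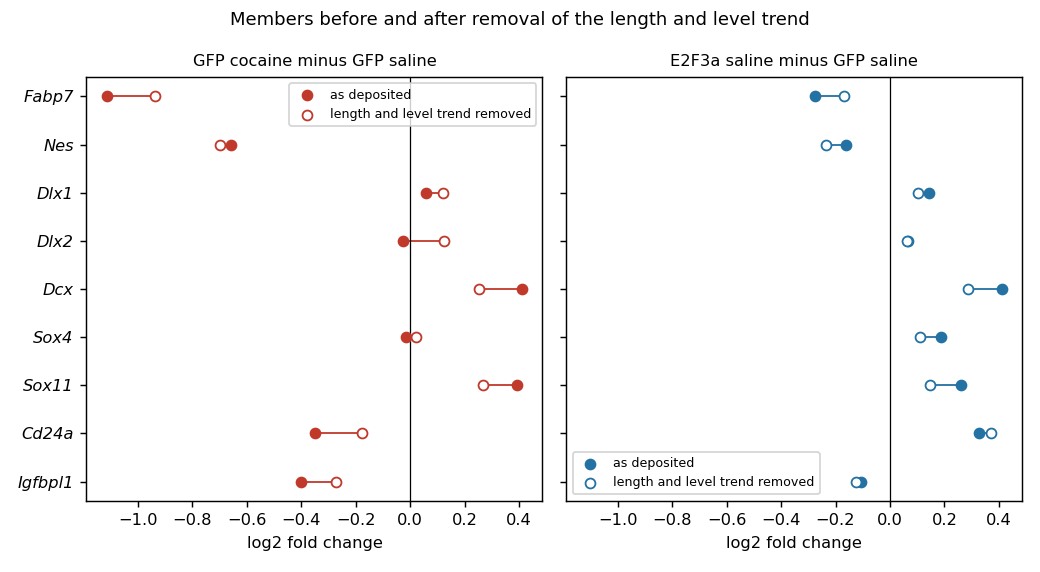
Log2 fold change (horizontal axis) of the 9 genes as deposited (filled) and after removal of a trend in transcript length and mean expression (open), for cocaine on the left and E2F3a on the right. In the left panel Fabp7 stays lowest, at -1.11 and -0.94, and Dlx2 and Sox4 cross 0.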

How the data were processed

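Poly-A RNA of 1 mouse per library was sequenced as single-end reads from TruSeq v2 libraries, per the labels' protocols. Bowtie2 2.1.0, HTSeq 0.6.0, TopHat2 2.0.9 and the mm10 build are named, with no roles, in the submitters' processing notes. How values were normalized, filtered and tested is not given in the sources used here.

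Each of the 2 tables that the authors deposited gives, for each gene, a log2 fold change, t and log odds (both score columns), a p-value with its adjusted form and the mean log2 expression, per the file headers. No columns of values per sample were used, so nothing was refitted. The adjusted p-values match a Benjamini-Hochberg adjustment over 14667 genes, and the p-values a t distribution with 11.29 degrees of freedom. The column names are those of limma, a moderated test.

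From the deposited values, SE was computed as log2 fold change over t, with 95% intervals from 11.29 degrees of freedom. The SD between mice is that SE over the value equal weights give for 3 and 4 libraries. Depth is unknown, and only these SEs give the precision. Nothing in the sources used here says more of the replicates than 1 mouse each. Lengths and coordinates are from GENCODE M21 (GRCm38), found for 99.4% of genes. Drd1 was matched to the older symbol Drd1a. Scripts were tested on simulated data. Named were the 9 genes, E2f3, family relatives, up to 4 genes per list by the smallest p-value, and the 3 nearest to Fabp7. The members and lists were chosen with earlier results of these data known. Alternatives were other call rules, a floor on expression, centring, trend removal, and other errors for the computed difference. Python 3.11.15, numpy 2.4.6, scipy 1.17.1, pandas 2.3.3 and matplotlib 3.10.9 were used.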

Additional observations from a re-analysis of the deposited data

How the results depend on the processing

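Counts of called members were the same under an adjusted p of 0.1, an adjustment over genes above the 25th percentile of expression, and a fold over 1.3 beside the unadjusted p. The threshold of 0.1 could not change a count, as no adjusted p by the authors' moderated test or the approximate one was under 0.533. Counts were not made with the trend removed, where the Sox11 interval after cocaine spans 0 (-0.10 to 0.63). For the computed difference of E2F3a saline and GFP cocaine mice, the counts were the same with standard errors added as if no libraries were shared. They were also the same with 8 degrees of freedom, which assumes that the authors' fit held no libraries beyond these 11. Whether it did is not given in the sources used here, and this also bears on the mean expression. Medians of the 9 genes moved by less than the median SE of a single gene, which is not the error of such a median. For cocaine the median went from -0.026 to -0.15 over the 6 genes above the floor. It was -0.021 without Cd24a, Nes and Dlx1, and 0.023 with the trend removed. For the computed difference the median of 0.20 became 0.29, 0.15 and 0.088 in turn, and for E2F3a the median of 0.14 became 0.20, 0.13 and 0.10. Of 54 values of single genes under centring or trend removal, 0 moved by over 1 SE and 6 changed sign, all of them near 0. These were Dlx2 (0.12) and Sox4 (0.023, and 0.0035 when centred) after cocaine, and Dlx1 (-0.016), Dlx2 (-0.061) and Dcx (0.034) in the computed difference. No paired analysis was possible because the tables used hold no values per mouse, and for the same reason no replicate could be left out, so the weight of 1 mouse in any value is unknown.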

Other observations

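Oligodendrocyte precursors, the other immature cells of this tissue, had marker medians above 0 in both tables, with 2 of 6 markers below 0 in each. Their E2F3a median was close to the 0.14 of the 9 genes. This was not particular to immature cells, as astrocyte markers had medians of 0.070 after cocaine and 0.16 with E2F3a. At an unadjusted p under 0.05, 7.51% of all genes were lower and 1.74% higher after cocaine, and 0.409% and 0.545% with E2F3a. The 6 precursor markers had a median log2 fold change of 0.076 after cocaine and 0.13 with E2F3a. By that rule 0 of these 6 markers were called in either of the authors' deposited tables. Pdgfra, their growth factor receptor, was listed at 0.072 (SE 0.19) after cocaine, and Gpr17, which marks their differentiating stage, at 0.16 (SE 0.21), in the authors' deposited table. Mature oligodendrocyte markers had medians of -0.037 and 0.18, again with 0 of 7 at an unadjusted p under 0.05. Striatal interneuron markers, a class that also uses Dlx1, had medians of 0.14 after cocaine and 0.011 with E2F3a, with 0 of 10 at that threshold. Their log2 fold changes after cocaine ran from -0.57 to 0.42 in the authors' deposited table, with Nos1, the neuronal nitric oxide synthase, at 0.36 (SE 0.22), the neuropeptide gene Vip at -0.57 (SE 0.40) and Pvalb, which encodes parvalbumin, at -0.55 (SE 0.47).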
